A study of Mus musculus with 12 samples.

Results

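Open chromatin around 8 genes for surface and secreted proteins of gut endoderm was described in mouse embryos at embryonic day 7.5. The genes were Cxcr4, Emb, Tmprss2, Trh, Pyy, Nepn, Spink1 and Tff3. A peak was a member if its midpoint lay nearer to 1 of these genes than to any other protein-coding gene and within 100 kb, with distance 0 inside the gene. This gave 203 of the 260693 peaks in 6 peak lists. Joined where they overlapped by at least 1 bp, they formed 72 open regions, of 87329 regions within 100 kb of any protein-coding gene.

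The cells came from embryos homozygous for a FoxA2 allele fused to the red fluorescent protein tagRFP, so the tag was carried by every group. In dHx embryos (FoxA2-deltaHx-tagRFP) the allele was also missing 10 residues from one alpha helix of the protein, a change that a peak list cannot show. In WT embryos (FoxA2-WT-tagRFP) it was otherwise unchanged. Per the labels' protocols, the mice were of mixed C57Bl6/J x CD-1 background, about 10 embryos were pooled per sort without regard to sex, and the extraembryonic part was removed. RFP-negative (Negative), RFP-middle (Middle) and RFP-high (High) cells were sorted from each genotype, Middle reaching up to the signal of heterozygous cells and High lying above it. The 12 samples formed 6 groups of 2, and each library used 2000 to 5000 cells. Because the authors' peak names mark each list as pooled, each group had 1 list and no difference between lists could be tested. The sort was on FoxA2 alone, so a list can hold several cell types, and a region open in fewer cells cannot be told apart from one less open per cell.

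FoxA2 is a forkhead transcription factor that can bind its sites in closed chromatin, and it is needed for the foregut, the node and the notochord. Definitive endoderm leaves the primitive streak during gastrulation and inserts into the outer layer of the embryo, where it forms the gut tube together with visceral endoderm cells. Surface proteins such as CXCR4 are used to recognise it, and several genes of secreted gut proteins become markers of endoderm regions long before the gut is functional. ATAC-seq reads open chromatin from the places where a transposase can insert sequencing adapters, and it does not measure transcription.

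The 6 lists held between 37129 (dHx High) and 50424 (dHx Negative) peaks. The background fitted to the steps of the authors' scores, used as a stand-in for depth, ran from 0.476 (dHx High) to 1.57 (dHx Negative) in mean pileup per base. Read totals are not used here. The dHx Negative list had the highest background and dHx High the lowest, while WT Negative had 1.08 and WT High 0.879. A score is the authors' own value for a peak, taken to be a −log10 transformed p or q. It grows with depth, so scores are compared below only within a list, and a percentile is the share of that list's own peaks with a lower score.

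The start sites of these genes differed in how often they were open, and their sequences differed in base composition. Promoter windows of 300 bases, from 250 before to 50 after the annotated start, were available for 6 of the 8 genes in the RefSeq table of GRCm38.p6, the assembly of mm10. Tff3 and Spink1 had no entry. Those shown lie at chr13:117220323-117220622 on the plus strand (Emb), chr1:128592250-128592549 on the minus strand (Cxcr4), chr6:92244601-92244900 on the minus strand (Trh) and chr10:52391358-52391657 on the plus strand (Nepn). They are 5′ to 3′ on the gene's own strand and run from the gene open at its start in all 6 lists to one open there in none. Capitals mark matches on either strand to a forkhead motif, which is TGTTTAC (present in 3.65% of all windows), TATTTAC (in 3.04% of them) or TGTTTGC (in 5.07% of them), or to the TATA box, TATAAA.
Emb: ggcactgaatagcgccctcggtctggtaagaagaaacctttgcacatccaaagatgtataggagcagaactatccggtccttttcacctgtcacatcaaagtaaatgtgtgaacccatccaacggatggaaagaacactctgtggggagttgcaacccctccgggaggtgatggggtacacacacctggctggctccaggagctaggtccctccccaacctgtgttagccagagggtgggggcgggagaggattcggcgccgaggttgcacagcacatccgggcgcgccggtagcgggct
Cxcr4: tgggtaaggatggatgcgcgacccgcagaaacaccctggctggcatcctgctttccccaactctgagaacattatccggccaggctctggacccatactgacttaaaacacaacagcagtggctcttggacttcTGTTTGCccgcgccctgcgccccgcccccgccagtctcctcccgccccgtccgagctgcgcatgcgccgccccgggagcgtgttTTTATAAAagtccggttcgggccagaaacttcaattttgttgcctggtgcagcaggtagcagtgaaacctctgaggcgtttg
Trh: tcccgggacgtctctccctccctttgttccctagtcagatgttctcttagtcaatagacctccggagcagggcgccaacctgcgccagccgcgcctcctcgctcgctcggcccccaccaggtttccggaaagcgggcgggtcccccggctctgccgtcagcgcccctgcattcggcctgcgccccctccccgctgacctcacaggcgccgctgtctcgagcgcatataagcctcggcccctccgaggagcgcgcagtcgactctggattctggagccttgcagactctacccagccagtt
Nepn: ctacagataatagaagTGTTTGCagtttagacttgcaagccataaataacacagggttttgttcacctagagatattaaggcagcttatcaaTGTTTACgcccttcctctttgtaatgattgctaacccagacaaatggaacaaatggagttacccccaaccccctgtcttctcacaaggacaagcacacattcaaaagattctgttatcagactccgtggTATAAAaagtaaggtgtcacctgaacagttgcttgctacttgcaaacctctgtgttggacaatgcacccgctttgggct

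The Emb window, with 14 CpG, and that of Tmprss2 (chr16:97611146-97611445, minus strand), with 13, were overlapped by a peak in all 6 lists. The Cxcr4 window had 20 CpG and a peak in 5 lists, with none in WT Middle. The Trh window had 28 CpG and a peak in 3 lists, namely dHx Negative, dHx High and WT High. The window of Nepn, with 3 CpG, and both windows of Pyy, with 8 each, had no peak in any list. Among the windows of all protein-coding genes with 20 or more CpG, 61.3% held a peak in all 6 lists, 33.6% in 1 to 5 and 5.10% in none. Cxcr4 and Trh thus fell in the middle group of their class, Trh with the most CpG of the 6 genes. Of the windows with 10 to 14 CpG, the class of Emb and Tmprss2, 41.9% held a peak in all 6 lists. Of those with 5 to 9 CpG, the class of Pyy, 57.9% held none, and of those with 0 to 4, the class of Nepn, 87.5%.

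**Figure D1:**
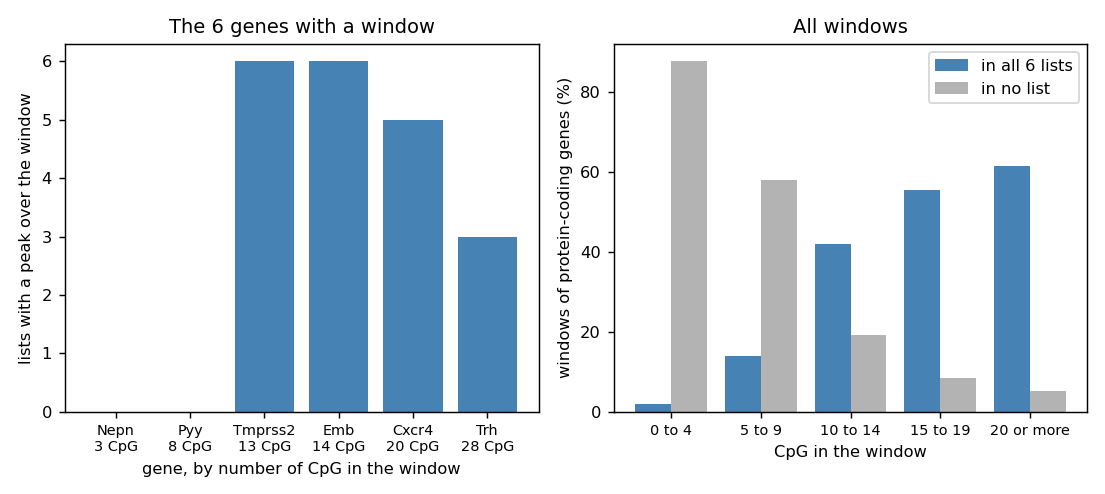
Left, number of lists (of 6) with a peak over the promoter window of each gene that had one, ordered by the number of CpG in the window. Right, percent of the windows of all protein-coding genes with a peak in all 6 lists or in none, by number of CpG. Nepn and Pyy, with 3 and 8 CpG, had no peak, and Trh, with 28 CpG, had a peak in 3 lists.

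Both strands were searched for 6 motifs, and a match is a description of letters, not of binding. Counted from 1 at the 5′ end of the window, the Cxcr4 window held TGTTTGC at bases 135 to 141 and TATAAA on both strands, the 2 matches overlapping within bases 219 to 226. The Nepn window held TGTTTGC at bases 17 to 23, TGTTTAC at 93 to 99 and TATAAA at 222 to 227. At least 1 of the 3 forkhead motifs was present in 11.2% of all 32851 windows of this length, and TATAAA in 13.6%. The windows of Emb, Trh, Tmprss2 and Pyy held none of the 6 motifs. The other two were AGATAAG for GATA factors, present in 3.04% of all windows, and ACAATGG for SOX factors, present in 3.66% of them.

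Over the 6 lists, the genes had very different numbers of peaks. Emb had 69, Tmprss2 53 and Cxcr4 46, more than 98.9%, 97.9% and 97.1% of all protein-coding genes. Spink1 had 17 and Trh 12, and Pyy, Nepn and Tff3 had 2 each, against a median of 7 over all protein-coding genes. The 3 genes of membrane proteins thus held most of the regions (25 for Emb, 17 for Tmprss2 and 15 for Cxcr4), and the 5 genes of secreted proteins held 15. Gene length and the size of the gene-free surroundings differ among them, so these numbers are not levels of openness.

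**Figure D2:**
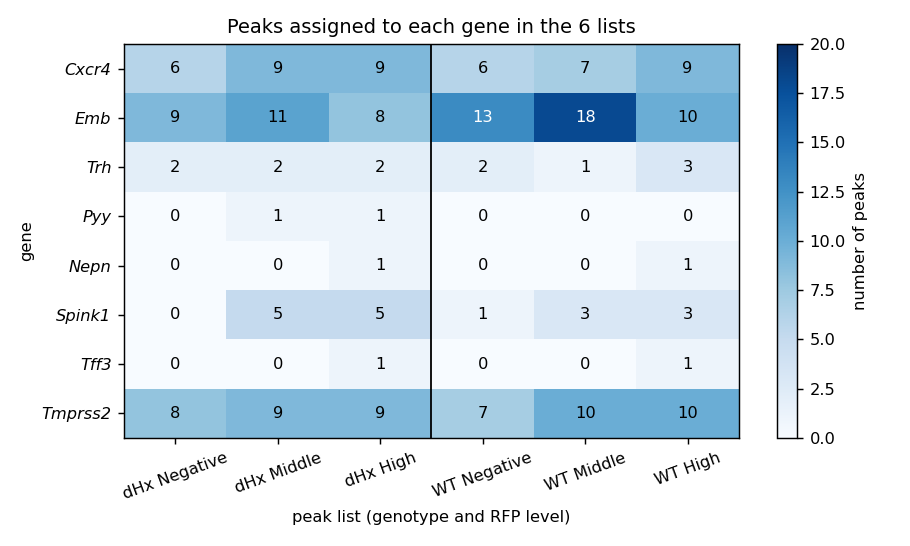
Number of peaks assigned to each gene (rows) in each list (columns, dHx left and WT right, each from Negative to High). Spink1 had 0 peaks in dHx Negative and 1 in WT Negative, against 3 to 5 in the other 4 lists, and Nepn and Tff3 had a peak in the High lists alone.

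Cxcr4 (chr1:128588199-128592299, minus strand) encodes the receptor of the chemokine CXCL12, which guides migrating cells. It had 6, 9 and 9 peaks in dHx Negative, Middle and High, and 6, 7 and 9 in the same WT lists. The gene had a pair of neighbouring regions far upstream that were open at both RFP-positive levels of both genotypes and in neither Negative list. The nearer one, chr1:128652770-128653628, lay 60.9 kb from the gene and had scores of 19 in dHx Middle, 26.6 in dHx High, 20.8 in WT Middle and 28.0 in WT High. These put it above 83.5% to 91.3% of the peaks of each list. Of the dHx High peaks of like score (0.8 to 1.25 times), 7.22% were without a dHx Negative peak, and 13.5% of such WT High peaks were without a WT Negative peak. The other region, chr1:128653878-128655067, lay 62.2 kb away and had scores of 19 in dHx Middle, 11.3 in dHx High, 20.8 in WT Middle and 3.05 in WT High. In WT High it was among the weaker peaks, above 12.0% of the list.

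Around the Cxcr4 start the picture was different. The region over the start, chr1:128591899-128593965, had scores of 20.3 in dHx Negative, 6.40 in dHx Middle, 9.88 in dHx High, 7.08 in WT Negative and 7.04 in WT High. It stood highest within its own list in dHx Negative, above 83.8% of the peaks there. A region 36.2 kb downstream, chr1:128551790-128552305, was the only one of the 15 Cxcr4 regions with a peak in all 6 lists. The region with the highest Cxcr4 score within WT Negative, chr1:128517086-128517304, had a score of 28.4 there and no peak in the other 5 lists. It was 219 bp wide and lay 71.0 kb downstream. A region 95.2 kb upstream, chr1:128687206-128687712, had scores of 4.31 in dHx Middle and 4.83 in dHx High and no peak in any WT list. It was the outermost member.

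Emb (chr13:117220573-117274415, plus strand) encodes embigin, a membrane glycoprotein of the immunoglobulin family that accompanies monocarboxylate transporters. It had 9, 11 and 8 peaks in dHx Negative, Middle and High, and 13, 18 and 10 in the same WT lists. Of its 25 regions, 4 were open in all 6 lists and 14 in a single list. The region chr13:117215011-117216594, 4.77 kb upstream, had scores of 25.3, 75.1 and 84.7 in dHx Negative, Middle and High, and 27.0, 86.1 and 77.9 in WT Negative, Middle and High. It lay above 98.5% to 98.8% of the peaks in the 4 RFP-positive lists, and above 87.7% in dHx Negative and 91.3% in WT Negative. The region over the start, chr13:117219484-117221346, had scores of 30.5, 50.3 and 36.8 in dHx Negative, Middle and High, and 37.2, 48.2 and 58.5 in the WT lists.

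A downstream region of Emb differed more between Negative and RFP-positive cells. The region chr13:117315160-117316157, 41.2 kb past the gene, had no peak in dHx Negative and scores of 33.9 in dHx Middle and 20.1 in dHx High. In WT Negative it had a score of 3.28, above 10.9% of the list, while it had 39.5 in WT Middle and 16.8 in WT High, above 93.4% and 81.5% of those lists. Of the dHx High peaks of like score, 11.7% had no dHx Negative peak. Just beyond the limit of 100 kb lay a region with a peak in all 6 lists, 112 kb from Emb, with scores of 5.41 in dHx Negative, 35.4 in dHx Middle, 23.3 in dHx High, 7.08 in WT Negative, 19.6 in WT Middle and 43.5 in WT High. It is no member and was not counted.

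Tmprss2 (chr16:97564682-97659541, minus strand) encodes a serine protease anchored in the membrane of epithelial cells. It had 8, 9 and 9 peaks in dHx Negative, Middle and High, and 7, 10 and 10 in the same WT lists. The RefSeq promoter window lies inside the annotated gene. At that start, the region chr16:97610681-97611793 was open in all 6 lists, with scores of 20.3, 17.6 and 15.6 in dHx Negative, Middle and High, and 6.07, 32.5 and 15.5 in WT Negative, Middle and High. At the upstream end of the annotated gene lay chr16:97658883-97659840, with scores of 12.3, 46.9 and 12.7 in dHx Negative, Middle and High, and 8.13, 48.2 and 26.5 in the WT lists. It had the highest Tmprss2 score within dHx Middle, WT Middle and WT High, and not within the other 3 lists. This region too had a peak in all 6 lists, and it stood above 96.4% of the peaks in dHx Middle and 95.3% in WT Middle.

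A region 28.5 kb downstream of Tmprss2, chr16:97536018-97536357, was open at both RFP-positive levels of WT and at neither of dHx. Its scores were 3.10 in WT Middle and 3.05 in WT High, with 2.24 in dHx Negative and 8.13 in WT Negative. Of the WT High peaks of like score, 69.0% lacked a dHx High peak, and of such WT Middle peaks 72% lacked a dHx Middle peak.

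Inside Tmprss2, the region chr16:97609560-97610192, 1.32 kb past that start, was open in all 4 RFP-positive lists and neither Negative list. Its scores were 7.52 in dHx Middle, 7.26 in dHx High, 19.6 in WT Middle and 3.97 in WT High. Of the WT Middle peaks of like score, 27.2% had no WT Negative peak. That share is given only for the list in which the region stood highest, above 82.3% of the peaks. It stood above 51.1% in dHx Middle, 46.7% in dHx High and 24.0% in WT High. Another region inside the gene, chr16:97632977-97633353, was open in both High lists alone. Its scores, 2.64 in dHx High and 2.19 in WT High, were the lowest that those lists hold.

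**Figure D3:**
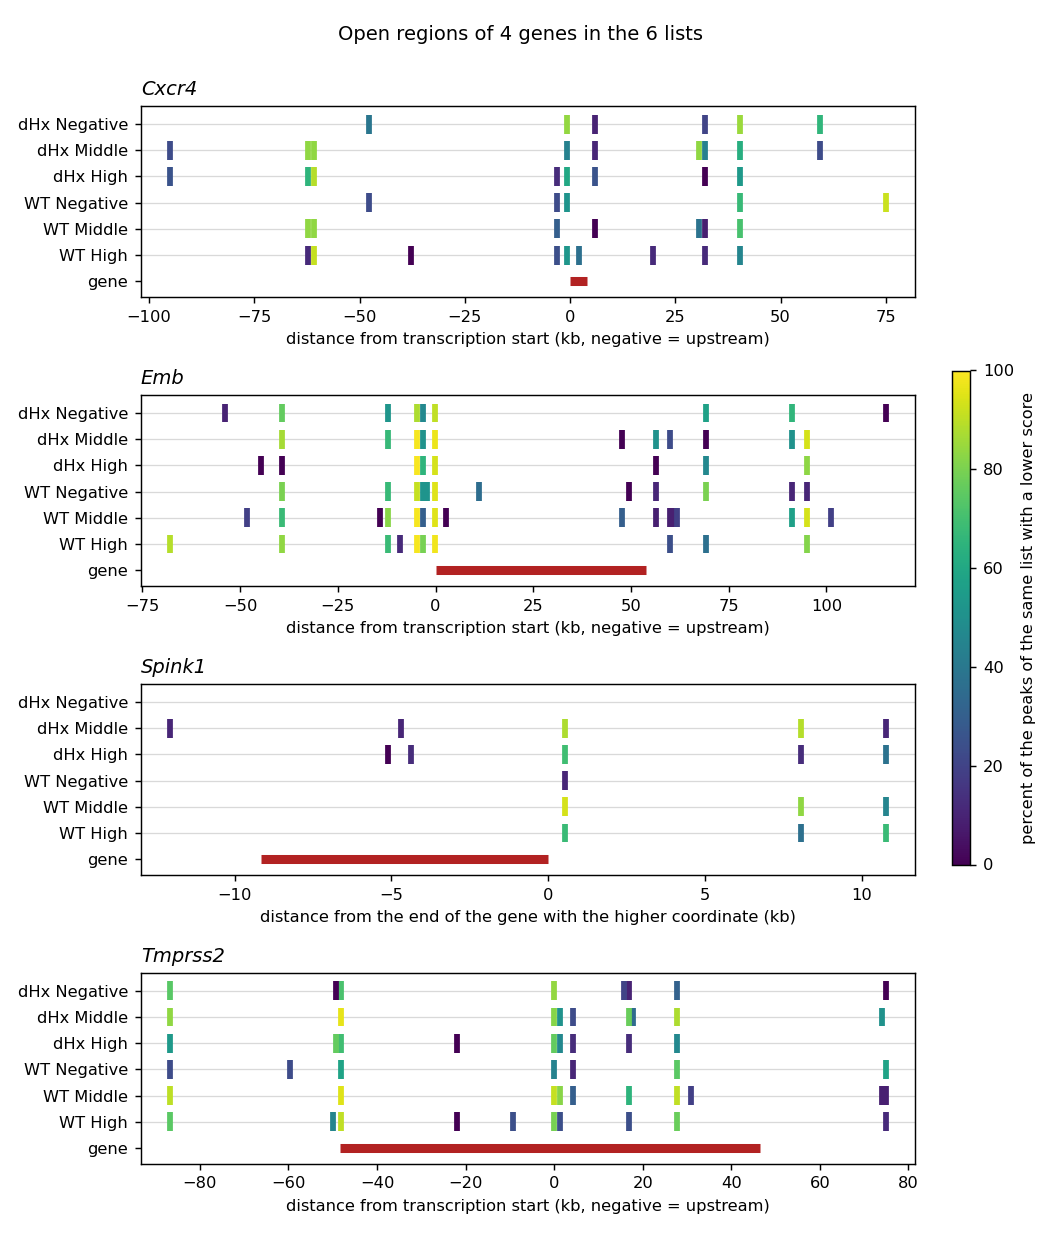
Open regions of Cxcr4, Emb, Spink1 and Tmprss2 in the 6 lists (rows), by distance in kb from the transcription start, or for Spink1 from the end of the gene with the higher coordinate. Each bar is a peak, drawn at a fixed width and coloured by the percent of the peaks of its list with a lower score, and red marks the gene. The pair of Cxcr4 regions about 61 kb upstream and the Spink1 regions beyond the gene stand in the Middle and High rows.

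Spink1 (chr18:43728069-43737237) encodes a secreted inhibitor of trypsin, made by the pancreas and gut. It had 0, 5 and 5 peaks in dHx Negative, Middle and High, and 1, 3 and 3 in the same WT lists. A Negative list thus held 1 of its 17 peaks. A region at the higher-coordinate end of the gene, chr18:43736986-43738561, had scores of 23.3 in dHx Middle, 12.7 in dHx High, 40.9 in WT Middle and 10.5 in WT High. It had no dHx Negative peak and a WT Negative peak with a score of 3.28, above 10.9% of that list. The region chr18:43744904-43745653, 8.04 kb from the gene, had scores of 24.7 in dHx Middle, 3.70 in dHx High, 20.8 in WT Middle and 4.95 in WT High. The region chr18:43747707-43748306, 10.8 kb away, had 3.34, 6.02, 6.52 and 10.5 in the same 4 lists. Neither of these 2 regions had a peak in a Negative list. The one at 8.04 kb stood above 88.9% of the peaks in dHx Middle and 83.5% in WT Middle. In dHx High and WT High it stood above 12.6% and 36.4%. The one at 10.8 kb stood above 10.8% in dHx Middle, 37.6% in dHx High, 45.3% in WT Middle and 67.8% in WT High. How often peaks of like score lack a Negative peak is not given for these regions. The other 4 Spink1 regions were each in a single dHx list, with scores of 2.64 to 3.70, at most above 12.6% of the list.

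Tff3 (chr17:31125306-31129611) encodes a trefoil peptide that goblet cells secrete with mucins, and its only region lay between it and its paralog Tff2. The region, chr17:31133572-31134046, was 4.2 kb from Tff3 and 7.25 kb from Tff2. It had a score of 14.1 in dHx High and 11.7 in WT High, above 72.8% and 71.3% of those lists, and no peak in the other 4. Of the dHx High peaks of like score, 16.4% had no dHx Middle peak and 19.4% no dHx Negative peak. Of the WT High peaks of like score, 18.8% had no WT Middle peak and 31.9% no WT Negative peak.

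Nepn (chr10:52388864-52404611, plus strand) encodes nephrocan, a secreted protein with leucine-rich repeats that marks part of the mouse gut tube. Its only region, chr10:52392680-52393259, lay inside the gene and was open in both High lists alone. Its score was 2.64 in dHx High, the lowest of that list, and 9.29 in WT High, above 63.5% of the list. Of the dHx High peaks of like score, 70.0% lacked a dHx Negative peak, while 38.9% of such WT High peaks lacked a WT Negative peak.

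Pyy (chr11:102106676-102107832, minus strand) encodes peptide YY, a hormone of enteroendocrine cells. It had 1 region, inside the gene at chr11:102106967-102107354, with scores of 4.31 in dHx Middle and 7.26 in dHx High. No WT list and no Negative list had a Pyy peak. Of the dHx Middle peaks of like score, 43.5% had no WT Middle peak, and of the dHx High peaks of like score, 30.3% had no WT High peak. A peak of this strength is therefore often missing from the other genotype's list, and the Pyy region and the outermost Cxcr4 region were the 2 of the 72 open at both RFP-positive levels of dHx and at neither of WT. In the other direction there was 1 region, of Tmprss2, described with that gene. Unlike it, the Pyy and Cxcr4 regions had no Negative peak. Regions in both RFP-positive lists of 1 genotype, whichever it was, and in no other list made up 2.78% of the 72, against 1.64% of all regions near a gene.

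Trh (chr6:92242061-92244650, minus strand) encodes the precursor of thyrotropin-releasing hormone. It had 2, 2 and 2 peaks in dHx Negative, Middle and High, and 2, 1 and 3 in the same WT lists. The region chr6:92247264-92248219, 3.09 kb upstream, had scores of 6.40 in dHx Middle, 12.7 in dHx High, 5.09 in WT Negative, 8.45 in WT Middle and 15.5 in WT High, and no dHx Negative peak. The region over the start, chr6:92244599-92244901, was weak wherever it was open, with scores of 2.97 in dHx Negative, 2.64 in dHx High and 3.97 in WT High. The other 3 Trh regions had scores of at most 3.05.

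High and Negative cells were compared to see which regions of these genes went with FoxA2. In dHx embryos, 19 of 36 High peaks (52.8%, Clopper-Pearson 95% interval 35.5 to 69.6) had no Negative peak, against 37.7% of all peaks near a protein-coding gene. In the other direction, 9 of 25 dHx Negative peaks (36.0%, 18.0 to 57.5) had no High peak, against 52.3%. In WT embryos, 20 of 37 High peaks (54.1%, 36.9 to 70.5) had no Negative peak, against 47.4%, and 12 of 29 Negative peaks (41.4%, 23.5 to 61.1) had no High peak, against 39.7%. The intervals cover counting error only and each of these 4 holds the share over all peaks. The dHx Negative list, with the highest fitted background, was the one in which the dHx High peaks were looked up, and the part of depth was not tested. By gene, Cxcr4, Tmprss2, Nepn, Spink1 and Tff3 had more High-only than Negative-only peaks in both genotypes, Pyy in dHx and Trh in WT. These were 6 of the 8 genes in dHx, against 23.1% of all genes with a peak, and 6 of the 7 genes with a peak in WT, against 38.8%. Nepn and Tff3 had no Negative peak in either genotype, nor had Pyy and Spink1 in dHx. These entered the count through High alone, so their sign was fixed. Of all genes with a peak, 6385 of 17172 in dHx and 6224 of 17032 in WT had equal numbers. Cxcr4, Emb and Tmprss2 have far more peaks than most genes, so the shares over all genes are not a like baseline. When a peak counted for all genes up to 100 kb away, 3 of the 8 were above 0 in dHx (Cxcr4, Pyy and Spink1) and Nepn, Tff3 and Tmprss2 came to a net of 0. With scores of at least 5, 4 genes had more High-only peaks in WT. Emb had more Negative-only peaks in both, with 3 High-only of 8 peaks against 4 Negative-only of 9 in dHx and 3 of 10 against 6 of 13 in WT.

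Among the strongest 20000 peaks of the High lists, 8 of 19 near these genes in dHx (42.1%) and 5 of 18 in WT (27.8%) had no peak anywhere in the Negative list, against 20.8% and 26.3% of all such peaks. No interval was computed for these shares, which rest on few peaks, so they are given as a description only. The 8 in dHx were 2 of Cxcr4, the upstream pair, and 1 each of Emb at 41.2 kb, Tmprss2 at 1.32 kb past the start, Trh at 3.09 kb, Pyy, Spink1 at the gene's end and Tff3. The 5 in WT were those of Cxcr4 at 60.9 kb, Emb at 68.0 kb, Nepn, Spink1 at 10.8 kb and Tff3.

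Between Middle and Negative cells, 19 of 37 dHx Middle peaks (51.4%, 34.4 to 68.1) had no Negative peak, against 38.1% of all peaks, and 20 of 39 WT Middle peaks (51.3%, 34.8 to 67.6), against 49.5%. In the other direction, 7 of 25 dHx Negative peaks (28.0%, 12.1 to 49.4) had no Middle peak, against 51.2%, and 11 of 29 WT Negative peaks (37.9%, 20.7 to 57.7), against 38.5%. These comparisons share their Negative lists with the previous ones. Between High and Middle cells, of the dHx High peaks, 10 of 36 (27.8%, 14.2 to 45.2) had no Middle peak, against 37.6%, and of the WT High peaks 14 of 37 (37.8%, 22.5 to 55.2), against 39.9%. Nepn and Tff3 had their only region among them in both genotypes. Of the dHx Middle peaks, 11 of 37 (29.7%, 15.9 to 47.0) had no High peak, against 39.8%, and of the WT Middle peaks 15 of 39 (38.5%, 23.4 to 55.4), against 43.3%.

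**Figure D4:**
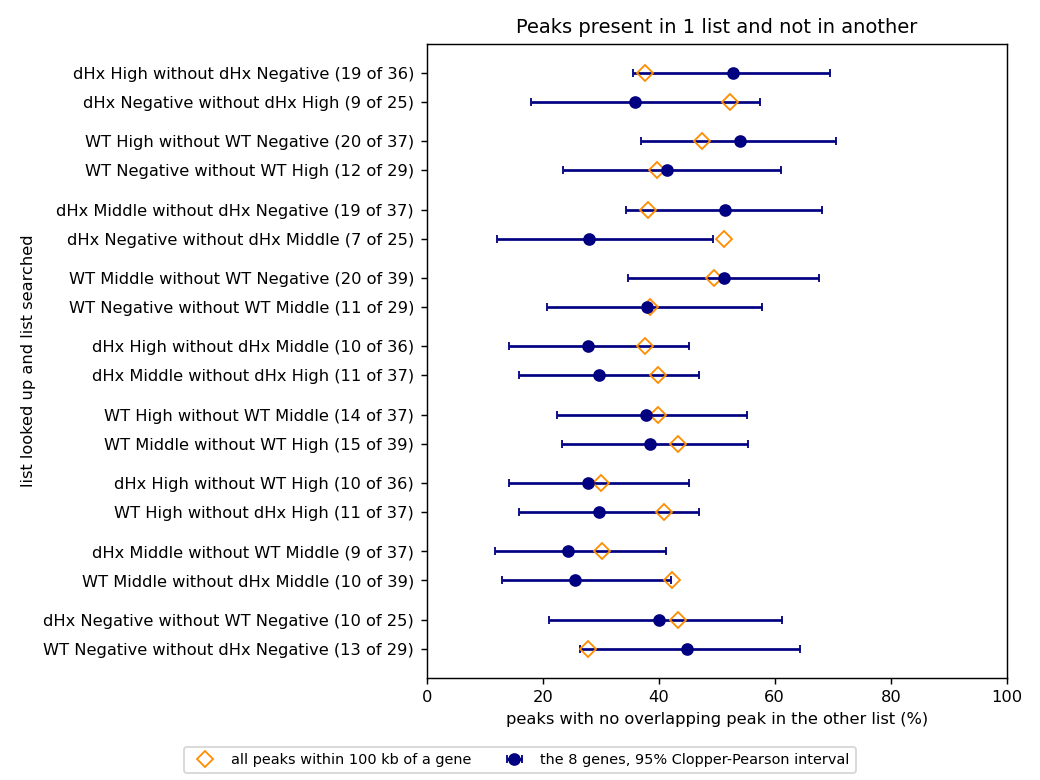
Percent of peaks in 1 list with no overlapping peak in another, for the 8 genes (points with 95% Clopper-Pearson intervals, counting error only, counts in the row names) and for all peaks within 100 kb of a protein-coding gene (diamonds). The points of dHx Negative peaks without a dHx Middle peak and of WT Middle peaks without a dHx Middle peak lie left of their diamonds with intervals that do not reach them. Both were looked up in the dHx Middle list, and the second misses narrowly (upper limit 42.1, diamond 42.4). All other intervals hold their diamonds. The intervals take peaks as independent, though several lie near the same gene, and no difference was tested.

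The helix deletion was the study's main contrast. The share of regions open in both genotypes was counted at each RFP level, without an interval, so it is given as a description only. At High, 26 of the 46 regions open in either genotype were open in both (56.5%), against 47.7% of all regions near a gene. At Middle, it was 28 of 46 (60.9%), against 46.7%, and at Negative 15 of 37 (40.5%), against 46.8%. Of the dHx High peaks, 10 of 36 (27.8%, 14.2 to 45.2) had no WT High peak, against 30% of all peaks, and of the WT High peaks 11 of 37 (29.7%, 15.9 to 47.0) had no dHx High peak, against 40.9%. At Middle, 9 of 37 dHx peaks (24.3%, 11.8 to 41.2) had no WT peak, against 30.1%, and 10 of 39 WT peaks (25.6%, 13 to 42.1) had no dHx peak, against 42.4%. At Negative, 10 of 25 dHx peaks (40%, 21.1 to 61.3) had no WT peak, against 43.3%, and 13 of 29 WT peaks (44.8%, 26.4 to 64.3) had no dHx peak, against 27.8%.

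By gene at High, Tff3 and Nepn had the same single region in both genotypes. Each of the 3 WT Spink1 peaks overlapped a dHx peak, and 2 of the 5 dHx Spink1 peaks had no WT peak. Cxcr4 had 3 dHx-only of 9 peaks and 3 WT-only of 9, Emb 2 of 8 and 4 of 10, Tmprss2 2 of 9 and 3 of 10, and Trh 0 of 2 and 1 of 3. Pyy had 1 dHx-only peak and no WT peak. The dHx-only peaks of Spink1 scored 2.64 and 3.70, so they stood near the lower end of their list. Among the strongest 20000 dHx High peaks, 2 near these genes had no WT High peak, the Pyy peak and one 0.821 kb upstream of Tmprss2 with a score of 15.6 (chr16:97660043-97660682). Among the strongest 20000 WT High peaks, 2 had no dHx High peak, both of Emb, at 68.0 and 12.3 kb upstream.

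Across the 6 lists, 9 of the 72 regions (12.5%, 5.88 to 22.4) were open in all 6, against 14.8% of all regions near a gene. They belonged to Emb and Tmprss2 with 4 each and to Cxcr4 with 1. In 5 regions (6.94%, 2.29 to 15.5) the peak was in all 4 RFP-positive lists and neither Negative list, against 2.04%. These were the 2 upstream regions of Cxcr4, 2 of Spink1 and 1 of Tmprss2. The interval takes regions as independent, but the Cxcr4 pair are neighbours, and the Spink1 regions lie 8.04 and 10.8 kb from that gene. With the looser condition of at least 1 RFP-positive list of each genotype and no Negative list, 12 regions (16.7%, 8.92 to 27.3) qualified, against 10.5%. A single list held 30 regions (41.7%, 30.2 to 53.9), against 43.9%. Both Negative lists alone held 1 region, of Cxcr4 (1.39%, 0.0352 to 7.50), against 2.72%. Both RFP-positive lists of 1 genotype and no other list held 2 regions (2.78%, 0.338 to 9.68), against 1.64%.

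Regions differed in position and strength. Inside the gene or within 1 kb lay 27 of the 72 regions (37.5%), against 61.0% of all regions, while 28 (38.9%) lay 10 to 100 kb away, against 26.1%. Of the 9 regions in all 6 lists, 4 were among the 27 of the nearest class and 3 among the 28 of the farthest. Over all regions, 19.5% of the nearest class and 6.85% of the farthest were in all 6 lists. The percentile used here is the highest over the lists with a peak, and the width is that of the joined region. Both can only stay or grow as lists are added, so they are not independent of the number of lists. Regions in all 6 lists had a median highest percentile of 90.6 and a median width of 958 bp. Those in 1 list had a median highest percentile of 12.3 and a width of 271 bp, and 27 of these 30 stayed below the 50th percentile. The 2 exceptions above the 80th percentile were the Cxcr4 region of WT Negative described above and the Emb region chr13:117152357-117152693, with a score of 23.6 in WT High. Both were narrow, at 219 and 337 bp, with 1 summit.

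**Figure D5:**
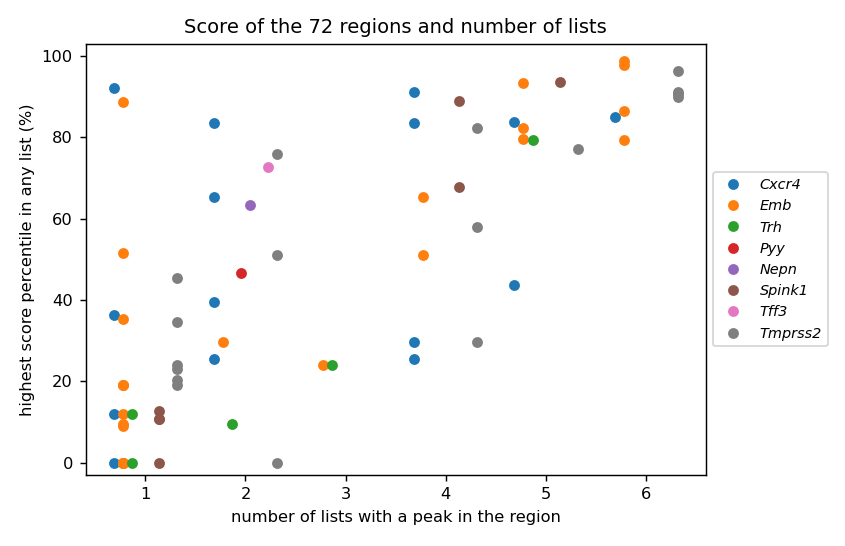
Highest score percentile of each of the 72 regions in any list (y axis, percent of the peaks of that list with a lower score) by the number of lists with a peak there (x axis), coloured by gene and set apart sideways for sight. Regions in all 6 lists lie between 79.4 and 98.8, and those in 1 list mostly below 50, with 2 of them, of Cxcr4 and Emb, above 80. A highest value can only stay or grow as lists are added, so the axes are not independent.

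Other genes of the same tissue are given from a list of 30 definitive and gut endoderm genes without the 8. In dHx, 17 of the 29 with a peak had more High-only than Negative-only peaks and 7 the reverse. In WT it was 18 and 6 of 30. Among all genes with a peak, 23.1% in dHx and 38.8% in WT had more High-only peaks, and 39.8% and 24.7% more Negative-only peaks. Between genotypes at High, 9 of the 30 had more dHx-only and 11 more WT-only peaks, beside 2 and 3 of the 8 genes. Over all genes with a peak, 21.0% had more dHx-only and 36.9% more WT-only peaks. The median net number of High-only peaks was 1 in both genotypes, against 0 over all genes. Foxa1, the forkhead paralog of Foxa2, had 6 High-only of 8 peaks against 0 Negative-only of 2 in dHx and 5 of 6 against 0 of 1 in WT. Cdh1, the epithelial adhesion protein E-cadherin, had 7 of 9 against 1 of 3 in dHx and 8 of 10 against 1 of 3 in WT. Krt18, a keratin of simple epithelia, had 5 of 9 against 0 of 4 in dHx and 6 of 10 against 0 of 4 in WT.

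A list of 30 partners and paralogs of the 8 genes was counted likewise. Of these, 9 of 19 with a peak had more High-only peaks in dHx and 10 of 18 in WT. More Negative-only peaks were found for 5 in dHx and 4 in WT, and the median net number was 0. The shares over all genes were 23.1% in dHx and 38.8% in WT for High-only, and 39.8% and 24.7% for Negative-only peaks. The genes named here, apart from Pcsk2 and Npy1r, had the largest net High-only number in at least 1 genotype. Ackr3, a scavenger receptor for CXCL12, had 1 High-only of 3 peaks against 0 of 2 in dHx and 2 of 4 against 0 of 2 in WT. Slc16a1, the monocarboxylate transporter MCT1, had 5 of 11 against 3 of 10 in dHx and 5 of 10 against 3 of 9 in WT. Spink4, a paralog of Spink1, had 2 of 2 against no peak in dHx. Npy, another peptide of the Pyy family, had 2 of 2 against no peak in dHx, and Pcsk1, a protease that cuts hormone precursors, 2 of 3 against 0 of 2 in dHx. Ppy, a paralog of Pyy beside it on the chromosome, had 2 of 2 against no peak in WT, as did Prss1, the trypsin that Spink1 inhibits. With no Negative peak in the genotype given, Spink4, Npy, Ppy and Prss1 entered through High alone, so their sign was fixed. Npy2r, a receptor of peptide YY, had 2 High-only of 3 peaks against 0 Negative-only of 1 in WT, and no High peak against 3 Negative-only of 3 in dHx. Npy1r, a related receptor, had 1 of 2 against 0 of 1 in WT, and no High peak against 3 of 3 in dHx. Pcsk2, a relative of Pcsk1, had 1 of 2 against 5 of 6 in dHx and 3 of 5 against 6 of 8 in WT.

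Markers of other cells that the sorts can hold were counted in the same way. Of 11 visceral endoderm genes with a peak, 6 in dHx and 8 in WT had more High-only peaks. The reverse held for 4 and 3. Of 8 node and notochord genes, 5 in each genotype had more High-only peaks and 3 in each more Negative-only peaks. Of 8 mesoderm genes, 1 in each genotype had more High-only peaks and 6 in dHx and 5 in WT had more Negative-only peaks. Of 9 epiblast and neural genes, 3 in dHx and 2 in WT had more High-only peaks, and 6 and 5 more Negative-only peaks. Of the blood and endothelium genes, 0 of 6 with a peak in dHx and 4 of 7 in WT had more High-only peaks. More Negative-only peaks were found for 6 of them in dHx and 3 in WT. Among all genes with a peak, 23.1% in dHx and 38.8% in WT had more High-only peaks. More Negative-only peaks were found for 39.8% and 24.7% of all genes. Visceral endoderm genes were also counted for Middle. More Middle-only than Negative-only peaks were found for 8 of 12 in dHx and 13 of 13 in WT, and the reverse for 2 and 0. Over all genes, 22.8% and 39.1% had more Middle-only peaks. For the list of 30 gut endoderm genes it was 19 of 30 in dHx and 15 of 29 in WT, with the reverse for 8 and 6. For the 8 genes it was 5 of 6 in dHx and 4 of 5 in WT, with the reverse for 0 and 1. Pyy and Spink1 in dHx entered through Middle alone. Between High and Middle, 9 of 12 visceral endoderm genes in dHx and 10 of 14 in WT had more Middle-only peaks, and 2 and 3 more High-only. Over all genes, 29.4% and 30.8% had more Middle-only peaks there. The part of these cells in the results for the 8 genes was not tested.

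Of the other listed genes, those nearest in their 6 peak numbers, by the sum of absolute differences over the lists, were Sox17 (8 peaks), Krt18 (9) and Cdh1 (11) for Cxcr4. For Tmprss2 they were Slc16a1 (8), Cdh1 (10) and Sox17 (11), and for Emb Tcf7l2 (14), Slc16a1 (16) and Eomes (20). For Spink1 they were Hhex (4), Shh (6) and Ttr (6). Npy4r had the same 6 numbers as Nepn and Tff3, and Tmprss3 the same as Pyy, which with 2 peaks in all says little. For Trh, Cer1, Mesp1 and Slc16a3 each differed by 2 peaks.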

How the data were processed

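ATAC-seq libraries were paired-end with 38-base reads, per the labels' protocols. The submitters' processing notes name mm10, STAR 2.5.2a and MACS2. What each did, and its settings, are not stated there. The peaks' names contain Pooled and unique, so a file was taken as 1 list for its group, with no replicate values. The deposited score was taken to be a −log10 transformed p or q, since its steps follow a Poisson tail. Lines with the same start and end were merged, keeping the highest score. Overlap was at least 1 bp. Genes came from RefSeq (GRCm38.p6, 21887 protein-coding genes). The fitted background is the mean of the Poisson distribution that fits the 40 lowest distinct scores. Python 3.11.15, pandas 2.3.3 and scipy 1.17.1 were used, and merging, assignment and overlap were tested on simulated data. No test between groups was possible with 1 list each. Named regions were each gene's highest-scoring one in any list (a rule that only chooses), those over a start, those High but not Negative in both genotypes, and those in every RFP-positive list of 1 genotype and none of the other. The single-list regions were chosen after their values were seen. From the gene lists, up to 4 genes with the largest net High-only number were named for each genotype (Pcsk2 and Npy1r were added after their values were seen), and 1 gene that qualified is not reported here. The 8 genes and the lists were chosen with earlier results of these data known. Alternatives are given in the closing section.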

Additional observations from a re-analysis of the deposited data

Results flagged for a closer look

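For 3 genes the number of dHx-only peaks minus WT-only peaks had opposite signs at different RFP levels. The difference was not tested, since each level had 1 list per genotype. For Spink1 the number was 2 at High and 2 at Middle and -1 at Negative (2 against -1). For Tmprss2 it was -1 at High and -1 at Middle and 1 at Negative (-1 against 1). For Trh it was -1 at High and 1 at Middle (-1 against 1). The fitted background was higher in WT than in dHx at High and Middle and higher in dHx than in WT at Negative, and its part in these signs was not tested.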

How the results depend on the processing

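The 8 genes' results were recomputed under 7 alternatives. With every gene within 100 kb in place of the nearest, the regions numbered 113, and with a score of at least 5 they numbered 39, against 72. Among the strongest 20000 peaks looked up in the whole other list, the share of WT High peaks without a WT Negative peak was 27.8%, that of dHx High peaks without a WT High peak 10.5% and that of WT High peaks without a dHx High peak 11.1%, against 54.1%, 27.8% and 29.7% (over all genes 26.3%, 12.2% and 16.8%). The other 29 values of these 5 results stayed within the interval, or within 1.5 times the count. By gene, the net number of High-only peaks turned to 1 for Emb in dHx with a limit of 50 kb and with lists of equal length, and to -1 for Cxcr4 in WT with a score of at least 5, where the net dHx-only number of Tmprss2 at High turned to 1. The net of Cxcr4 in dHx, 2, came to 0 with a limit of 50 kb and with a score of at least 5. Over 6 of these alternatives, 3 to 8 genes in dHx and 4 to 6 in WT had more High-only peaks. The cause was not tested. No paired analysis was possible because each group has 1 pooled list, and for the same reason no replicate could be left out. The lists differed in fitted background, and the part of depth in which weak peaks were listed was not tested.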

Other observations

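The Cxcr4 region chr1:128517086-128517304, with a score of 28.4 in WT Negative, was absent from the other 5 lists. Of the WT Negative peaks of like score, 3.95% had no dHx Negative peak, 5.64% no WT Middle peak and 8.94% no WT High peak. The Emb region chr13:117152357-117152693, with a score of 23.6 in WT High, was likewise in a single list. Of the WT High peaks of like score, 4.44% had no WT Middle peak, 7.75% no dHx High peak and 16.2% no WT Negative peak. The Tmprss2 region chr16:97660043-97660682 had a score of 15.6 in dHx High and 2.24, the lowest of its list, in dHx Negative, and no peak in the other 4 lists. The 3 regions were chosen after their values were seen, and with 1 pooled list per group no replicate shows whether they recur.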
